A study of Homo sapiens with 6 samples.

Results

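The HOX cluster genes were examined in the H660 neuroendocrine prostate cancer (NEPC) cell line with and without doxycycline (DOX)-induced silencing of MUC1. They were taken as every row of the gene count table whose symbol is HOX, a cluster letter from A to D and a number. Of 28008 genes in that table, 39 met this rule, with 11 in HOXA, 10 in HOXB, 9 in HOXC and 9 in HOXD, and all of them also had a level in TPM, in which counts are scaled to transcript length and to a common total. In GRCh38.p14 coordinates from RefSeq, the stretch from HOXA2 to HOXA13 lies at chr7:27100354-27200091, the HOXB genes at chr17:48528526-48728750, the HOXC genes at chr12:53938831-54056030 and the HOXD genes at chr2:176087487-176190907.

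H660 (NCI-H660) is an established human NEPC line. The cells carried an shRNA against MUC1 under a tetracycline-inducible promoter in a puromycin-selectable lentiviral vector. The DOX-negative group (3 libraries) received 0.1% DMSO as vehicle, and the DOX-positive group (3 libraries) received 500 ng/ml DOX, which switches the hairpin on. All 6 libraries came from this 1 line, cultured in triplicate, and none came from cells given DOX with a control hairpin, so that silencing of MUC1 and exposure to DOX cannot be told apart. DOX was given for a week. Nothing in the labels says that the cultures were set up separately, and the p-values then measure the spread between these libraries.

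HOX genes encode homeodomain transcription factors that give cells their position along the body axis. Within a cluster their order on the chromosome follows the order in which they are used, from low-numbered (anterior) genes, which retinoic acid can switch on, to high-numbered (posterior) genes, which pattern the hindgut and the urogenital tract. Members that share a number in different clusters are called paralogs. MLL and trithorax proteins keep active HOX genes on, Polycomb proteins keep silent ones off, and HOX proteins bind DNA together with PBX and MEIS cofactors. In the prostate, HOXB13 is a lineage factor of luminal cells, and HOXA13 and HOXD13 act in the development of the urogenital sinus.

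HOX promoters are often rich in CpG dinucleotides, and 4 of them are shown as examples of windows with many and with few CpG, before a pair of expressed genes and a pair of genes close to silent. They were picked after their sequences and levels were seen. HOXA10, HOXD8, HOXA9 and HOXA6, which also have a promoter entry and higher levels than HOXD1, are not shown. The HOXA9 window held 20 CpG. HOXD12, close to silent at 0.046 TPM, had 16 CpG in its window and is not shown either. HOXD1 and HOXB1 are paralogs of group 1, of which HOXD1 had 2.11 TPM and HOXB1 had no counts, while HOXA13 had 5.91 TPM and HOXA2 had 0.032 TPM. Each run is the 250 bases before the annotated start, read 5′ to 3′ on the gene's strand from RefSeq (GRCh38.p14), with CpG dinucleotides in capitals. They come from chr2:176188418-176188667 (HOXD1, plus strand), chr17:48531012-48531261 (HOXB1, minus strand), chr7:27200092-27200341 (HOXA13, minus strand) and chr7:27102684-27102933 (HOXA2, minus strand).
HOXD1: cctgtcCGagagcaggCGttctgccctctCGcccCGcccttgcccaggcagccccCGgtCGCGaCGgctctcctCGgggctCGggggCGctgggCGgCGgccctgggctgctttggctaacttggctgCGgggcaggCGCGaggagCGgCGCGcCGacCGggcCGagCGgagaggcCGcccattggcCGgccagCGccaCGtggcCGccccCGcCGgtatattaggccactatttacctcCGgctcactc
HOXB1: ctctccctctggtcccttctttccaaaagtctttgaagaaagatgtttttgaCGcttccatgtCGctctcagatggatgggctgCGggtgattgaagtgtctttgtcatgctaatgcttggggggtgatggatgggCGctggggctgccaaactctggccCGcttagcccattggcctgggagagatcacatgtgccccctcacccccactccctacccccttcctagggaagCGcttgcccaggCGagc
HOXA13: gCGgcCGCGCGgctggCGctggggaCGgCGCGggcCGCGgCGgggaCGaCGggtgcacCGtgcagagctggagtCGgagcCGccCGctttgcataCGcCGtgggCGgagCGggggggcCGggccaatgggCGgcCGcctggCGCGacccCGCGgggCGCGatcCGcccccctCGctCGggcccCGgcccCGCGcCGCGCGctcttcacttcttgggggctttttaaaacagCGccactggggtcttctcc
HOXA2: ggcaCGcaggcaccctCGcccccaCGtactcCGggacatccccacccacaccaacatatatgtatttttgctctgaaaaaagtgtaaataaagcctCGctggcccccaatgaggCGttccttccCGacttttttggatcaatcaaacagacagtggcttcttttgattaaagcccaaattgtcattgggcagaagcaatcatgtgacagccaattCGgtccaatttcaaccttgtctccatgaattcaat

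The HOXD1 window held 31 CpG and the HOXA13 window held 40, against 7 for HOXB1 and 8 for HOXA2. A promoter entry was matched for 20 of the 39 genes (27 windows, of which 7 belong to HOXA3). HOXB1 was the only HOXB gene among them. The expressed HOXB genes, HOXB7 and HOXB2 included, thus had no window, and the matched genes at or above 1 TPM were all in HOXA or HOXD. Taking the window with the most CpG for each gene, the 8 genes with a mean of at least 1 TPM had 20 to 40 CpG (median 26.5), the 12 genes below 1 TPM had 4 to 28 (median 15), and the median over all 35116 promoter windows was 11. HOXA7, at 0.32 TPM, had 28 CpG, so that the ranges overlapped. 5 motifs were searched on both strands. The E-box CACGTG was present in 8 of 27 HOX windows (29.6%) against 6.34% of all windows, and the HOXD1 run holds it. CACGTG itself contains a CpG, and the shares were not adjusted for the CpG content of the windows. The CCAAT box was present in 18 of 27 HOX windows (66.7%) against 32.0% of all windows, including those of HOXD1, HOXB1, HOXA13 and HOXA2. The TATA box TATAAA was present in 5 HOX windows (18.5%, against 10.7% of all windows) and the HOX-PBX site TGATNNAT in 3 (11.1%, against 6.47%). The nuclear receptor half-site AGGTCA was in 0 of the 27 windows, against 12.1% of all windows, which says only that these letters are not in them. HOXC4 and HOXC5 share 1 window, so that 26 of the 27 are distinct, and several belong to 1 gene. These are matches of letters, and binding was not measured.

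Values between libraries are compared as CPM, the counts of a gene scaled to a common library size. The count table held 47620696 to 74061121 counts per library, of which 10559 to 19356 fell in HOX genes. MUC1, the targeted gene, had 86.0 ± 5.65 CPM (SD, n = 3) in vehicle and 34.6 ± 4.08 under DOX, a log2 fold change of -1.32 (SE 0.10, edgeR adjusted p = 0.00017). The neuroendocrine markers CHGA and SYP were at 28.0 and 19.4 TPM, whereas the luminal marker KLK3 had 0 counts. Between 71.6% and 79.5% of all TPM in a library came from 5 short noncoding RNAs (RN7SK, SNORD3A, RN7SL1, RN7SL2 and RPPH1), which lowers the TPM of every other gene. Among the libraries, DOX-negative replicate 3 had the fewest reads and the largest share of TPM in SNORD3A (34.5% against 18.6% to 24.8%).

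The cells expressed HOXA, HOXB and HOXD genes, and the HOXC cluster was close to silent apart from HOXC4, at 0.56 TPM. Of the 39 genes, 16 had a mean of at least 1 TPM over the 6 libraries, with 7 in HOXA, 6 in HOXB, 3 in HOXD and none in HOXC. HOXB genes summed to 30.7 TPM (45.0% of the HOX total), HOXA genes to 25.4 TPM (37.2%), HOXD genes to 11.4 TPM (16.8%) and HOXC genes to 0.76 TPM (1.11%). HOXB7, a central gene of its cluster, had the highest level at 12.8 TPM (range over libraries 9.24 to 15.96). It was followed by HOXB2, a hindbrain-patterning gene, at 7.19 TPM (4.86 to 9.77), HOXA10, a posterior gene active in the reproductive tract, at 6.65 TPM (5.49 to 7.87), HOXA13 at 5.91 TPM (4.17 to 6.78), HOXD8 at 4.66 TPM (3.59 to 6.28) and HOXB9 at 3.98 TPM (2.47 to 5.16). HOXA10 was above HOXA13 in all 6 libraries although their ranges overlapped, whereas HOXB2 was above HOXA10 in 4 of the 6, so that the order of those 2 is not set by these libraries. HOXB5 stood just inside the threshold at 1.20 TPM and HOXB4 just outside it at 0.90 TPM. When TPM was rescaled to a total without the 5 short RNAs, a choice made after the data were seen, 27 genes reached 1 TPM, HOXC4 among them.

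**Figure D1:**
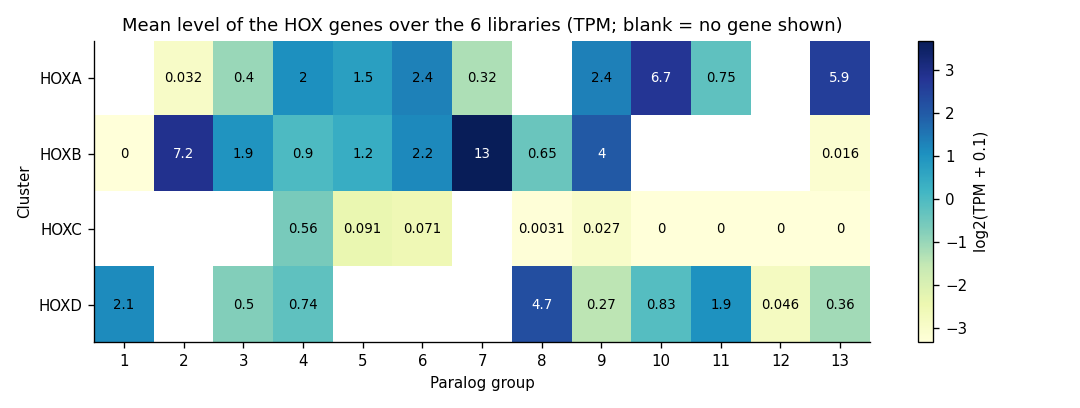
Mean TPM over the 6 libraries for the HOX genes shown, by cluster (rows) and paralog group (columns), with the TPM printed in each cell and the colour on a log2(TPM + 0.1) scale. HOXB7 has the darkest cell at 12.8 TPM, and in the HOXC row HOXC4 is the highest at 0.56 TPM.

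Each paralog group except group 12 had a member at or above 1 TPM. Groups 5, 6 and 9 each had 2 such members. In group 13, HOXA13 was at 5.91 TPM, HOXD13 at 0.36 TPM and HOXB13 at 0.016 TPM, with HOXC13 at 0 counts. In group 7, HOXB7 was at 12.8 TPM and HOXA7 at 0.32 TPM. In group 8, HOXD8 was at 4.66 TPM, HOXB8 at 0.65 TPM and HOXC8 at 0.0031 TPM.

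The next comparison asks whether HOX transcripts differed between cells with DOX-induced MUC1 silencing and vehicle-treated cells. With DOX, the estimates of the tested HOXB genes were 1.09 to 1.38 times the vehicle level, but no HOX gene passed the adjusted threshold. Of 29 HOX genes that passed the count filter, 0 were called by edgeR's quasi-likelihood test at an adjusted p under 0.05, against 4.87% of the 17026 genes tested. By DESeq2, 4 of the 28 HOX genes with an adjusted p were called (HOXB2, HOXB6, HOXB9 and HOXD1), all higher with DOX, against 8.43% of all genes. The same 4 genes were called by edgeR without the count filter, out of 34 HOX genes, against 4.99% of all genes. At an unadjusted edgeR p under 0.05 there were 11 HOX genes, 10 of them higher (11.6% of all genes tested were) and 1 lower (9.53% of all genes).

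The estimates leaned towards higher levels with DOX. Of the 29 genes, 24 had a log2 fold change above 0, as did 50.1% of all genes tested, and the median was 0.23 against 0.00 over all genes. In 10 of the 29 genes every DOX-positive library had a higher CPM than every DOX-negative library, compared with 14.8% of all genes, and in 1 gene every DOX-positive library was lower, compared with 13.3% of all genes. The highest estimate was 0.51 (HOXA7), and the SE of the 16 genes at or above 1 TPM was 0.08 to 0.14. With 3 libraries against 3, an exact permutation test of a single gene cannot give a two-sided p under 0.1.

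All 8 tested HOXB genes had estimates above 0, from 0.12 (HOXB4) to 0.46 (HOXB9), as did 50.1% of all genes tested. In 6 of the 8 the groups lay apart, higher with DOX, compared with 14.8% of all genes. The summed CPM of the cluster was 89.3, 85.0 and 77.9 without DOX and 98.8, 110.4 and 108.5 with DOX. The HOXA sum was 106.3, 105.7 and 104.2 without DOX and 102.3, 108.3 and 108.4 with DOX. The HOXD sum was 40.9, 40.1 and 37.2 without DOX and 44.8, 43.5 and 43.2 with DOX. The HOXB and HOXD sums thus lay apart between the groups and the HOXA sum did not, which describes the sums and is no test between the clusters.

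The anterior HOXB genes, HOXB2 and HOXB3, pattern the hindbrain. HOXB2 had 17.9, 17.4 and 15.4 CPM in vehicle and 21.2, 23.9 and 19.5 CPM under DOX, a log2 fold change of 0.35 (SE 0.10, edgeR adjusted p = 0.069). HOXB3 had 12.02, 12.8 and 11.3 CPM in vehicle and 14.8, 15.1 and 14.4 CPM under DOX, a log2 fold change of 0.29 (SE 0.09, edgeR adjusted p = 0.083). In each of these genes the lowest library with DOX was above the highest without it. HOXB4, which is known for expanding blood stem cells, had 2.54, 3.25 and 3.26 CPM in vehicle and 3.24, 3.02 and 3.55 CPM under DOX, and its groups overlapped (log2 fold change 0.12, SE 0.14).

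Among the central HOXB genes, HOXB5 had 3.44, 3.33 and 3.44 CPM in vehicle and 3.53, 4.47 and 4.27 CPM under DOX, and its groups lay apart by a narrow margin (log2 fold change 0.26, SE 0.13, edgeR adjusted p = 0.27). HOXB6 had 5.43, 5.42 and 4.58 CPM in vehicle and 6.36, 7.15 and 7.42 CPM under DOX, a log2 fold change of 0.44 (SE 0.12, edgeR adjusted p = 0.054). HOXB7 had 27.2, 26.01 and 24.4 CPM in vehicle and 28.8, 32.1 and 31.7 CPM under DOX, a log2 fold change of 0.25 (SE 0.09, edgeR adjusted p = 0.11). The highest vehicle-treated library for both HOXB6 and HOXB7 was replicate 1, which was still under every DOX-positive library. HOXB8 had 2.02, 1.60 and 1.55 CPM in vehicle and 1.84, 2.38 and 2.75 CPM under DOX, and DOX-positive replicate 1 fell within the vehicle range.

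HOXB9, a posterior gene of the cluster that acts with its paralogs in the mammary gland and the thoracic skeleton, had the largest HOXB estimate. It had 18.7, 15.1 and 13.9 CPM in vehicle and 19.0, 22.2 and 24.8 CPM under DOX, a log2 fold change of 0.46 (SE 0.13, edgeR adjusted p = 0.056). DOX-negative replicate 1 and DOX-positive replicate 1 were close to each other, at 18.7 and 19.0 CPM. Without DOX-negative replicate 1 the estimate was 0.60 (edgeR adjusted p = 0.024), without DOX-positive replicate 1 it was 0.56 (adjusted p = 0.029), and the highest adjusted p with a library left out was 0.26, without DOX-negative replicate 3. HOXB13, at the far end of the cluster, had 2, 2 and 4 counts without DOX and 6, 8 and 11 counts with DOX and was under the filter. In CPM its groups overlapped, with DOX-negative replicate 3 at 0.084 and DOX-positive replicate 1 at 0.079.

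**Figure D2:**
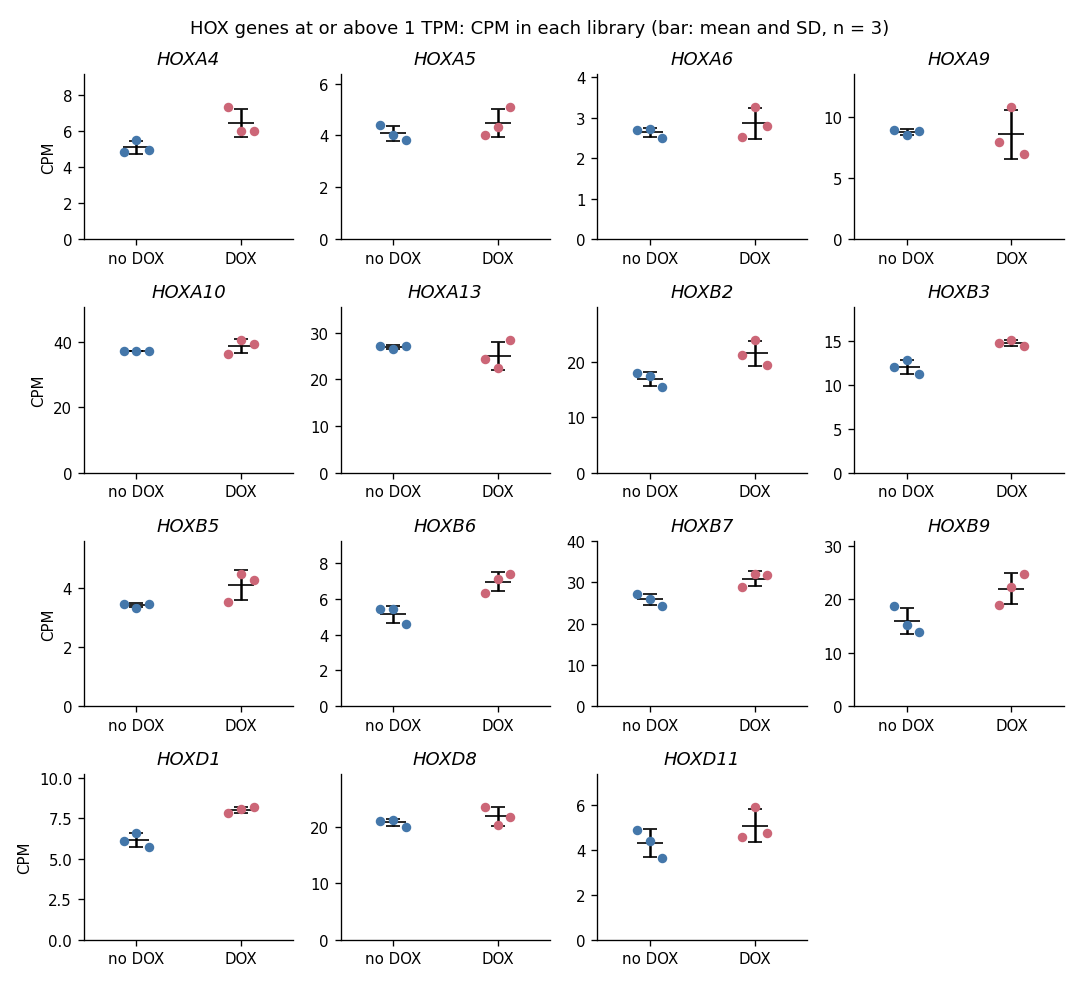
CPM (linear axis from 0) of 15 of the 16 HOX genes with a mean of at least 1 TPM, in each DOX-negative and DOX-positive library, with the mean and SD of 3 libraries per group. The groups lie apart in 8 genes, all higher with DOX (14.8% of all genes tested were), among them HOXB2, HOXB3, HOXB6, HOXB7, HOXB9 and HOXD1.

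In the HOXD cluster, HOXD1, the anterior member, had 6.10, 6.63 and 5.75 CPM in vehicle and 7.84, 8.09 and 8.21 CPM under DOX, a log2 fold change of 0.38 (SE 0.10, edgeR adjusted p = 0.054). The 3 DOX-positive libraries were close together and above all vehicle libraries. HOXD8 had 21.1, 21.4 and 20.1 CPM in vehicle and 23.6, 20.4 and 21.9 CPM under DOX (log2 fold change 0.07, SE 0.09), and HOXD11, a posterior gene that patterns the forearm and the kidney with its paralogs, had 4.88, 4.36 and 3.63 CPM in vehicle and 4.55, 5.89 and 4.73 CPM under DOX (log2 fold change 0.23, SE 0.14). Both overlapped between the groups. HOXD3, HOXD4, HOXD9, HOXD10 and HOXD13 were below 1 TPM, with estimates from -0.15 (HOXD4) to 0.39 (HOXD9) and unadjusted p of 0.15 or more.

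Among the low-numbered HOXA genes, HOXA4 had 4.87, 5.51 and 4.96 CPM in vehicle and 7.36, 6.00 and 6.04 CPM under DOX (log2 fold change 0.34, SE 0.12, edgeR adjusted p = 0.13), and its groups did not overlap. HOXA3 and the central gene HOXA7, both below 1 TPM, had estimates of 0.36 and 0.51 (SE 0.14 and 0.19, edgeR adjusted p = 0.17 and 0.14). Their groups did not overlap either.

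The other central HOXA genes, HOXA5 and HOXA6, overlapped between the groups, with estimates of 0.13 and 0.11, unlike HOXA7. HOXA5, a lung and mammary regulator, had 4.40, 4.03 and 3.84 CPM in vehicle and 4.04, 4.33 and 5.10 CPM under DOX. HOXA6 had 2.71, 2.72 and 2.50 CPM in vehicle and 2.53, 3.27 and 2.79 CPM under DOX. In both HOXA5 and HOXA6 at least 1 DOX-positive library lay within the vehicle range.

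The posterior HOXA genes were level between the groups or spread widely with DOX. HOXA9, a driver of acute leukemias, had 8.98, 8.55 and 8.88 CPM in vehicle and 7.99, 10.9 and 6.99 CPM under DOX, and its estimate of -0.04 (SE 0.14) turned to 0.01 without DOX-positive replicate 1 and to 0.09 without DOX-positive replicate 3. HOXA10 had 37.2, 37.2 and 37.0 CPM in vehicle and 36.3, 40.4 and 39.3 CPM under DOX (log2 fold change 0.06, SE 0.08), and HOXA11, below 1 TPM, had an estimate of 0.10 (SE 0.13). HOXA13 had 27.2, 26.4 and 27.2 CPM in vehicle and 24.3, 22.5 and 28.4 CPM under DOX (log2 fold change -0.10, SE 0.10), with DOX-positive replicate 3 above every vehicle library and the other DOX-positive libraries below them.

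**Figure D3:**
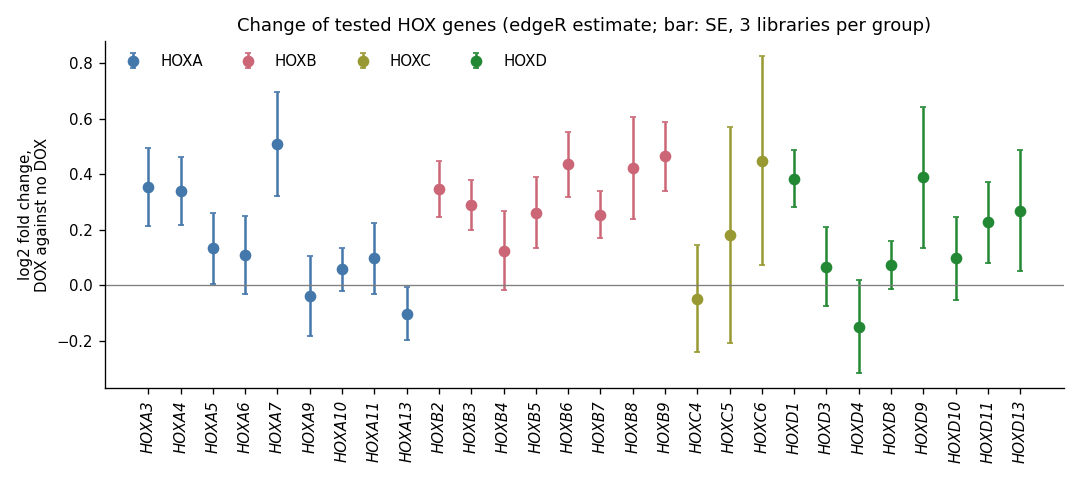
Log2 fold change (DOX against no DOX, edgeR) with its SE for 28 of the 29 tested HOX genes, coloured by cluster. All 8 HOXB points lie above 0, from 0.12 to 0.46, as did 50.1% of all genes tested. HOXD4 has the lowest of the points shown at -0.15, and no gene had an adjusted p under 0.05.

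The HOXC cluster gave few reads. HOXC4 had 94 to 172 counts per library and 0.56 TPM, HOXC5 12 to 38 counts and HOXC6 6 to 25 counts, and these were the only HOXC genes tested, with estimates of -0.05, 0.18 and 0.45 (SE 0.19, 0.39 and 0.38). HOXC8 had 0 to 2 counts and HOXC9 0 to 11. HOXC10, HOXC11, HOXC12, HOXC13 and HOXB1 had 0 counts in every library, where a count of 0 allows up to 0.040 to 0.063 CPM depending on the library (3 counts; counting error only). HOXA2 (3 to 12 counts) and HOXD12 (1 to 6 counts) were also under the filter and were not tested in the fit reported here. The HOXA2 groups lay apart, at 0.063 to 0.078 CPM in vehicle and 0.081 to 0.159 CPM under DOX, a range that a few counts set.

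Whether the HOX genes nearest to the threshold were called depended on the test and on the libraries used. HOXB2, HOXB6, HOXB9 and HOXD1 had DESeq2 adjusted p of 0.030, 0.026, 0.013 and 0.031, and edgeR adjusted p of 0.045, 0.039, 0.028 and 0.049 without the count filter. In all 6 fits that left out 1 library the 4 estimates stayed above 0, at 0.27 to 0.41 for HOXB2, 0.36 to 0.50 for HOXB6, 0.37 to 0.60 for HOXB9 and 0.33 to 0.44 for HOXD1. HOXB6 was called without DOX-positive replicate 1 (edgeR adjusted p = 0.044). Without DOX-negative replicate 3, the shallowest library, the 4 adjusted p were 0.28, 0.22, 0.26 and 0.21.

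**Figure D4:**
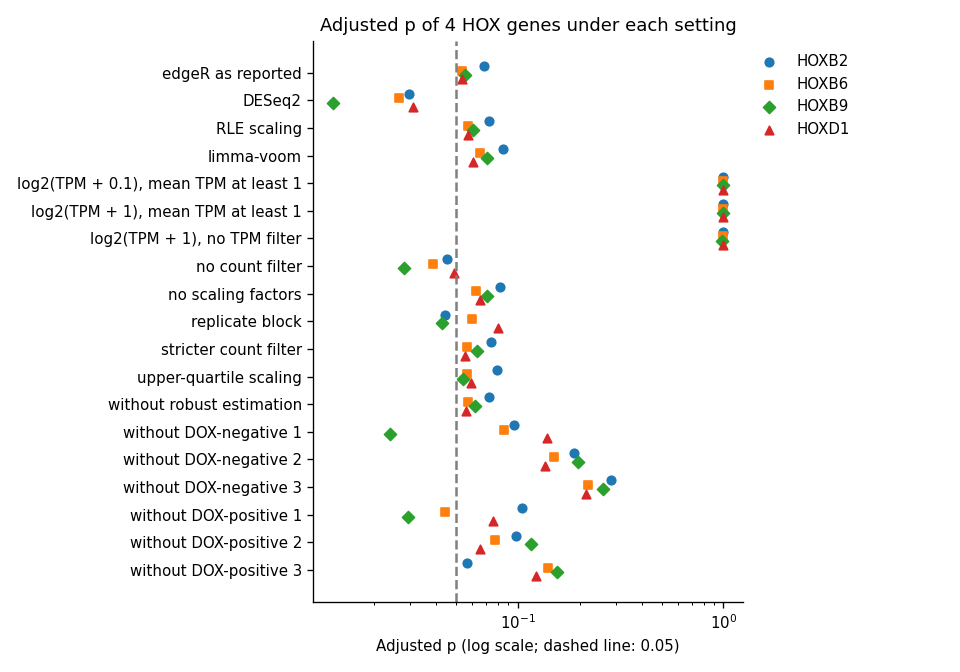
Adjusted p (log axis, dashed line at 0.05) of HOXB2, HOXB6, HOXB9 and HOXD1 under edgeR as reported and under each alternative setting. All 4 genes are left of the line under DESeq2 and without a count filter, and all 4 are near 1 in the fits on log2 TPM.

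Other transcripts overlap several of these genes. In GENCODE v29, HOXB7, HOXB8 and HOXB9 share no exonic base with another gene, and HOXB2 shares 3.72% of its exonic bases with HOXB-AS1 on the opposite strand. HOXB6 shares 16.6% with HOXB3 on its own strand and 16.3% with HOXB-AS3 on the opposite strand, whereas HOXD1 shares 58.1% with opposite-strand genes, mainly HAGLR. HOXA7 shares 62.5% with HOXA-AS3 on the opposite strand, and HOXD4 and HOXD3 share 80.5% and 62.2% with a further gene model on their own strand. The library kit keeps the strand, but the strand setting of the counting is not given in the sources used here, so that reads of such pairs are uncertain for the members named.

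The noncoding RNAs of the clusters, which include antisense transcripts and microRNA hosts, showed no call. Of 24 listed, 22 were in the count table and 13 were tested, with 9 estimates above 0, 4 below 0 and a median of 0.20; 3 had an unadjusted edgeR p under 0.05 and DESeq2 called 0. HOXA10-AS, at 8.42 TPM the highest of the list, had 13.7 ± 2.50 CPM in vehicle and 17.1 ± 1.09 CPM under DOX (SD, n = 3 each), a log2 fold change of 0.31 (SE 0.12, edgeR adjusted p = 0.17). HAGLR, which overlaps HOXD1, had 59.2 ± 3.71 and 68.5 ± 4.14 CPM (log2 fold change 0.21, SE 0.08, edgeR adjusted p = 0.15), and HOXB-AS1, which overlaps HOXB2, had 2.51 ± 0.30 and 3.21 ± 0.14 CPM (log2 fold change 0.35, SE 0.14, edgeR adjusted p = 0.16). In each of these 3 the groups lay apart, and the latter 2 were named after their values were seen, for their overlap with members. HOTTIP, a noncoding RNA beside HOXA13, also named after its values were seen, lay apart in the other direction, with 1.53 ± 0.14 CPM in vehicle and 1.24 ± 0.13 CPM under DOX (log2 fold change -0.31, SE 0.17, edgeR adjusted p = 0.34). HOXB-AS3 had only 3 to 18 counts. HOTAIR, an antisense RNA of the HOXC cluster, had 0 or 1 counts.

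The cofactors with which HOX proteins bind DNA were all counted and none was called by edgeR or DESeq2, with 1 at an unadjusted edgeR p under 0.05. Of 9 PBX, MEIS and PKNOX genes, all were tested, 2 had estimates above 0 and 7 below 0, and the median was -0.12. MEIS1 had 24.6 ± 2.43 CPM in vehicle and 19.9 ± 2.09 CPM under DOX (SD, n = 3 each), a log2 fold change of -0.30 (SE 0.10, edgeR adjusted p = 0.12), with every DOX-positive library below every vehicle library, for which it was named. Of 9 homeobox relatives outside the clusters, 2 were tested and none was called by edgeR, by DESeq2 or at an unadjusted edgeR p under 0.05. MNX1, which is expressed in motor neurons and the pancreas, was the highest of them at 1.10 TPM and had an estimate of 0.11 (SE 0.15), and CDX1, CDX4 and GSX1 had 0 counts.

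Among the chromatin regulators of HOX clusters, 3 of 34 tested genes rose with DOX by edgeR and none fell, beside 4.87% of all genes called in either direction. In the MLL and trithorax list, 1 of 13 tested genes was called, with a list median of 0.04. DOT1L, a histone methyltransferase recruited by MLL fusions, rose from 138.2 ± 10.3 to 176.6 ± 8.67 CPM (SD, n = 3 each; log2 fold change 0.35, SE 0.08, edgeR adjusted p = 0.026). PSIP1, the MLL adaptor with the highest level at 29.2 TPM, had an estimate of 0.03 (SE 0.09), which turned to -0.02 without DOX-negative replicate 3 and to -0.04 without DOX-positive replicate 3.

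In the Polycomb list, edgeR called 2 of 21 tested genes (4.87% of all genes), with a list median of 0.05, and DESeq2 called 5 (8.43% of all genes). CBX2 rose from 105.6 ± 5.47 to 133.1 ± 11.7 CPM (SD, n = 3 each; log2 fold change 0.33, SE 0.08, edgeR adjusted p = 0.041). It encodes a reader of the repressive histone mark that Polycomb sets. EZH2, which writes this mark, had 109.6 ± 1.04 and 130.4 ± 7.51 CPM (log2 fold change 0.25, SE 0.07, edgeR adjusted p = 0.066), and PHC3 had 109.4 ± 6.45 and 87.4 ± 8.67 CPM (log2 fold change -0.32, SE 0.09, edgeR adjusted p = 0.054); both were named after their values were seen and both were called by DESeq2. PHC3 was also called lower without the count filter, with the replicate block and with upper-quartile scaling (edgeR adjusted p = 0.033, 0.028 and 0.042). RBBP7, the highest of the list at 58.4 TPM, had an estimate of 0.05 (SE 0.08). Without DOX-negative replicate 3 the adjusted p of DOT1L and CBX2 were 0.14 and 0.20, and without DOX-negative replicate 2 they were 0.11 and 0.16. CBX2 lost its call without each of the libraries except DOX-positive replicate 1.

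Retinoic acid, the classical inducer of anterior HOX genes, is made, stored, sensed and removed by enzymes, carriers and receptors. Of these, 3 of 13 tested rose with DOX by edgeR and none fell (4.87% of all genes were called). Retinoic acid itself was not measured. DHRS3, a retinaldehyde reductase, rose from 9.33 ± 0.23 to 16.4 ± 1.65 CPM (log2 fold change 0.81, SE 0.10, edgeR adjusted p = 0.0024). The receptor RARG rose from 8.47 ± 1.13 to 12.01 ± 1.62 CPM (log2 fold change 0.50, SE 0.13, edgeR adjusted p = 0.046), and ALDH1A1, which makes retinoic acid, rose from 150.9 ± 13.8 to 204.3 ± 32.4 CPM (log2 fold change 0.44, SE 0.11, edgeR adjusted p = 0.041). DESeq2 called 6 genes of the list (8.43% of all genes). It had 10 estimates above 0 and 3 below 0, with a median of 0.32. DHRS3 was called without each library in turn. RARG and ALDH1A1 each lost their call in 4 of 6 such fits, without either of DOX-negative replicates 2 and 3 or DOX-positive replicates 2 and 3, with an adjusted p of 0.19 for both without DOX-negative replicate 3.

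**Figure D5:**
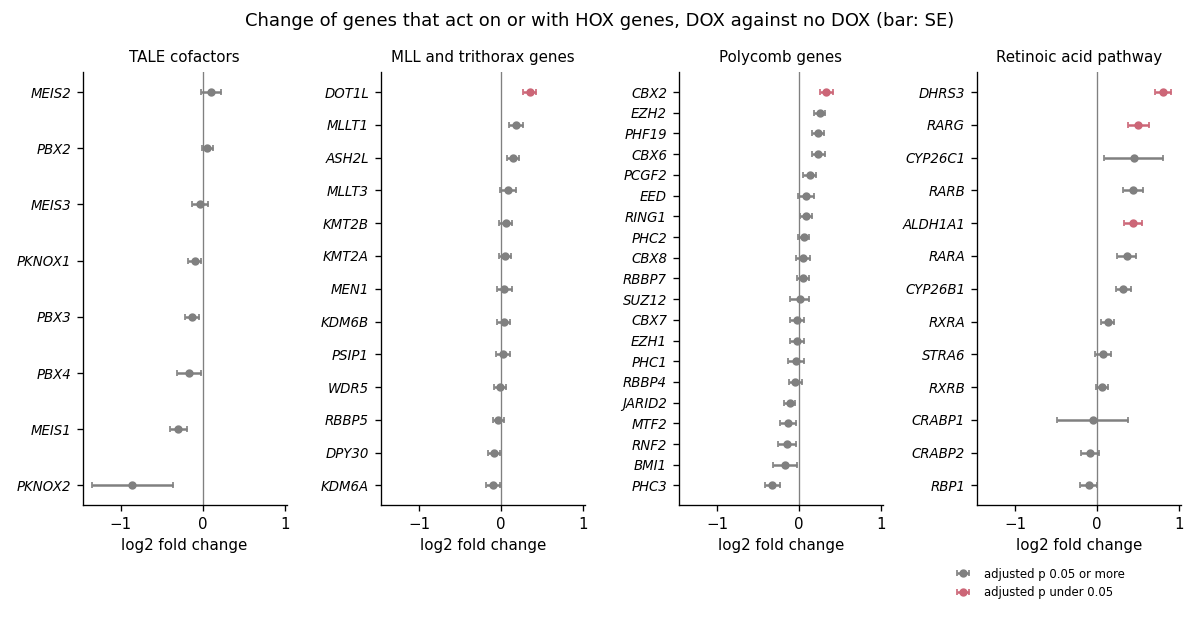
Log2 fold change (DOX against no DOX, edgeR) with its SE for tested genes of 4 lists: HOX cofactors, MLL and trithorax genes, Polycomb genes and the retinoic acid pathway. Called genes (red) are DOT1L, CBX2, DHRS3, RARG and ALDH1A1, all above 0, and DHRS3 is the highest at 0.81.

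The genes that border the 4 clusters differed little between the groups. Of 22 listed symbols, which include older names of the same genes, 19 were in the count table and 17 were tested, and none was called by edgeR (1 at an unadjusted p under 0.05) or DESeq2, with estimates from -0.22 to 0.14 and a median of 0.00. HNRNPA1, an RNA-binding protein gene near HOXC and the highest of the list at 264.0 TPM, had an estimate of -0.12 (SE 0.07, edgeR adjusted p = 0.35). PRAC1 and PRAC2, prostate- and colon-enriched genes between HOXB9 and HOXB13, had 0 counts.

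Markers of cell identity also differed between the groups, and their part in the HOX values was not tested. In the neuroendocrine list, edgeR called 2 of 9 genes (4.87% of all genes), both lower with DOX, and DESeq2 called 3 (8.43% of all genes). The third, DLL3, a Notch ligand named after its values were seen, had 42.0 ± 3.63 CPM in vehicle and 30.4 ± 5.78 CPM under DOX (SD, n = 3 each; log2 fold change -0.47, SE 0.13, edgeR adjusted p = 0.054). The cell adhesion gene NCAM1 fell from 200.7 ± 15.6 to 141.4 ± 16.7 CPM (log2 fold change -0.50, SE 0.09, edgeR adjusted p = 0.014), and INSM1, a neuroendocrine transcription factor, fell from 111.9 ± 8.21 to 81.8 ± 13.3 CPM (log2 fold change -0.45, SE 0.11, edgeR adjusted p = 0.039). Of the 9 genes, 3 had estimates above 0 and 6 below 0. CHGA, the highest, had an estimate of -0.20 (SE 0.08, edgeR adjusted p = 0.19). CHGB, named after its values were seen, had 60.1 ± 9.51 CPM in vehicle and 73.3 ± 7.61 CPM under DOX. Its groups lay apart, higher with DOX (log2 fold change 0.29, SE 0.11, edgeR adjusted p = 0.17). The summed CPM of the list was 937.3 to 1052.6 without DOX and 824.1 to 920.7 with DOX. Of 4 tested luminal markers, ACPP, which encodes prostatic acid phosphatase, rose from 4.09 ± 0.43 to 5.98 ± 0.51 CPM (log2 fold change 0.54, SE 0.12, edgeR adjusted p = 0.030). Without DOX-negative replicate 3 the adjusted p of NCAM1, INSM1 and ACPP were 0.082, 0.17 and 0.15, and all 3 also lost their call without DOX-negative replicate 2 (0.079, 0.15 and 0.10). INSM1 lost it as well without DOX-positive replicate 2 or 3, and ACPP without DOX-positive replicate 3.

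Of 13 stromal, endothelial and leukocyte markers, 6 were tested and 5 rose with DOX by edgeR, against 4.87% of all genes called in either direction, and DESeq2 called 5 (8.43% of all genes). All of them were at low levels. LUM, VWF, CDH5 and CD68 had log2 fold changes of 1.06, 0.97, 0.94 and 0.78 (SE 0.24, 0.19, 0.17 and 0.16) and edgeR adjusted p of 0.030, 0.018, 0.013 and 0.019, with mean levels of 0.51, 0.13, 0.44 and 0.48 TPM. COL1A2, the highest of the list at 1.48 TPM, had an estimate of -0.71 (SE 0.27, edgeR adjusted p = 0.20). The summed CPM of the list was 31.0 to 34.8 without DOX and 33.1 to 38.2 with DOX, so that the groups overlapped, and COL3A1 and CD3E had 0 counts, PTPRC 0 or 1 and PECAM1 0 to 6. Without DOX-negative replicate 3 the 4 adjusted p were 0.14, 0.086, 0.091 and 0.082, and without DOX-negative replicate 2 they were 0.13, 0.076, 0.069 and 0.081. LUM also lost its call without DOX-positive replicate 3, and CD68 without DOX-negative replicate 1.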

How the data were processed

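RNA-seq libraries (TruSeq Stranded mRNA) from H660 cells were compared, 3 DOX-negative against 3 DOX-positive. The authors deposited raw read counts per gene from STAR against GRCh38 (hg38) and, in a second table, TPM values; versions and the annotation are not given in the sources used here. The submitters' processing notes also name DESeq2. Depth was 47620696 to 74061121 counts per library. TPM was used for levels. Differences were tested on counts in edgeR 4.0.16 (R 4.3.3) with filterByExpr, TMM scaling, robust dispersion and the quasi-likelihood F test, with Benjamini-Hochberg adjustment over 17026 genes and a threshold of 0.05; the SE is the estimate over the square root of F. CPM values are TMM-scaled. The code was tested on simulated data. Alternatives were DESeq2 1.42.0, limma 3.58.1 (voom; log2 of TPM plus 1 or 0.1), other scalings and filters, a replicate block, other TPM thresholds and leaving out each library. The members and the gene lists were chosen with earlier results of these data known. The rule named the HOX genes that passed the filter. From each list it took up to 4 called genes with the largest change and the gene with the highest TPM. HAGLR, HOXB-AS1, HOXB-AS3, HOTTIP, DLL3, MEIS1, EZH2, PHC3 and CHGB were added after their values were seen. SYP and genes with 0 or few counts were also named outside this rule. No 2 libraries of a group agreed within sampling noise (chi-square per degree of freedom 15.6 to 95.1). Promoter sequences and coordinates came from RefSeq (GRCh38.p14) and exon overlaps from GENCODE v29. Some genes that the rule names are not reported here.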

Additional observations from a re-analysis of the deposited data

How the results depend on the processing

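The count of HOX genes called, all of them higher with DOX, was 0 in edgeR as reported, 4 with DESeq2, 4 without the count filter, 2 with the replicate block and 0 to 2 with 1 library left out; it was 0 under the other scalings and filters, limma-voom and log2 TPM, and HOX genes called lower were 0 throughout. The median log2 fold change of the tested HOX genes was 0.23, and 0.073 on log2(TPM + 1) with no TPM filter. Genes called in all were 829, with 1355 by DESeq2, 35, 30 and 0 on log2(TPM + 0.1), on log2(TPM + 1) and on log2(TPM + 1) without the TPM filter (1248 at an unadjusted p under 0.05), and 58 to 1035 with 1 library left out, the lowest without DOX-negative replicate 3. MUC1 stayed lower under every alternative and lost its call on log2(TPM + 1) without the TPM filter (-1.22, limma adjusted p = 0.29). There were 16 HOX genes at or above 1 TPM, 23 at 0.5 TPM, 12 at 2 TPM, 16 with any library left out and 27 after rescaling without the 5 short RNAs, which was chosen after seeing the data.

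Signs turned only in fits with a library left out, over which HOXA9 ranged from -0.23 to 0.092, HOXC4 from -0.23 to 0.103, HOXC5 from -0.18 to 0.55, MNX1 from -0.0058 to 0.23 and PSIP1 from -0.036 to 0.11. Among genes taken from the lists, noncoding RNAs of the clusters included and CHGB not, calls were lost in 38 of 332 fits on all libraries. With a library left out they were lost in 37 of 174 fits. Calls were gained in 8 and 2 such fits. The causes were not tested. Same-numbered libraries did not deviate together (correlation of deviations -0.54, 0.02 and -0.10 for numbers 1 to 3). With 3 libraries per group this does not settle whether the numbers mark pairs. The replicate block gave 998 called genes in all. The 5 HOX genes that were counted but under the filter had 0 to 12 counts per library.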
